A study of Mus musculus with 4 samples.

Results

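The insulin-like growth factor (IGF) axis was examined in the chromatin accessibility data through 10 genes. These were the ligand genes *Igf1* and *Igf2*, the receptor genes *Igf1r*, *Igf2r* and *Insr*, the binding protein genes *Igfbp2*, *Igfbp3*, *Igfbp4* and *Igfbp5*, and *H19*, the noncoding neighbour of *Igf2*. They were chosen by name out of 55450 annotated genes, and every one of them is accounted for below. A peak was assigned to a gene when it lay in the gene body or within 10 kb of one of its transcription start sites (TSSs). By this rule the 10 genes held 22 of the 25745 peaks that were more accessible in *Smyd1-KO* hearts, called gained peaks here, and 0 of the 106 peaks that were more accessible in wild-type (WT) hearts.

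The study asked how open chromatin changes in the embryonic heart without SMYD1, a muscle-restricted histone methyltransferase that interacts with the chromatin remodeler CHD4. Hearts were taken at embryonic day 9.5 (E9.5) from WT embryos and from embryos homozygous for a constitutive *Smyd1* null allele, so all cells of the mutant lacked the gene, and homozygotes are known to die with heart defects soon after this stage. They came from crosses of heterozygous parents, and the embryos were of either sex. Each genotype had 2 libraries, each made from 40000 viable cells of 4 pooled, cryopreserved whole hearts. ATAC-seq, the assay used, inserts sequencing adapters into DNA that nucleosomes leave free. The deposited lists compare the pooled libraries of the genotypes, so a peak has one value and no replicate error, the spread between pools is unknown, and no test between genotypes could be made. The score given with each peak is the pooled tag signal there in the genotype in which it is enriched. Its values need not be whole, so it is a scaled value and not a raw count, and the scaling is not given in the sources used here. It is given in these scaled tags throughout, ranks peaks within a list and is not a fold change. In whole hearts, an open site in more cells and a more open site in the same cells cannot be told apart.

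IGF1 and IGF2 are secreted growth factors that act through the receptor tyrosine kinase IGF1R and, for IGF2, through an isoform of the insulin receptor INSR. IGF2R binds IGF2 and delivers it to lysosomes, and the IGFBPs hold the ligands in the extracellular fluid. *Igf2* is expressed from the paternal allele, *H19* and *Igf2r* from the maternal allele, and IGF2 from the epicardium and endocardium is a known mitogen of the embryonic heart. The lists do not separate the parental alleles.

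Of the 10 genes, 8 had at least 1 gained peak. Among all 21951 protein-coding genes 62.6% had one by the same rule, and among all annotated genes 39.7%, so having a gained peak was common in the genome at large. A gained peak within 3 kb of an own TSS was present at 7 of the 10 genes, against 51.2% of protein-coding genes. At least 3 gained peaks were found at 3 of the 10 genes, the 3 receptors, against 12.0% of protein-coding genes. The receptors also had the longest windows of the 10, 97.3 kb for *Igf2r*, 168 kb for *Insr* and 291 kb for *Igf1r*. Per 100 kb of window, *Igf2r* had 3.08 gained peaks, a density above that of 63.7% of protein-coding genes, and *Insr* had 1.79, above 50.4%. At least 10 were found at *Igf1r* alone, against 0.200%. No gene of the 10 had a WT-enriched peak, against 0.155% of protein-coding genes, and the WT-enriched peak nearest to a TSS of any of them was 2.33 Mb away, on the side of *H19*. The receptor genes held 16 of the 22 peaks, the ligands 2, the binding protein genes 3 and *H19* 1.

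**Figure D1:**
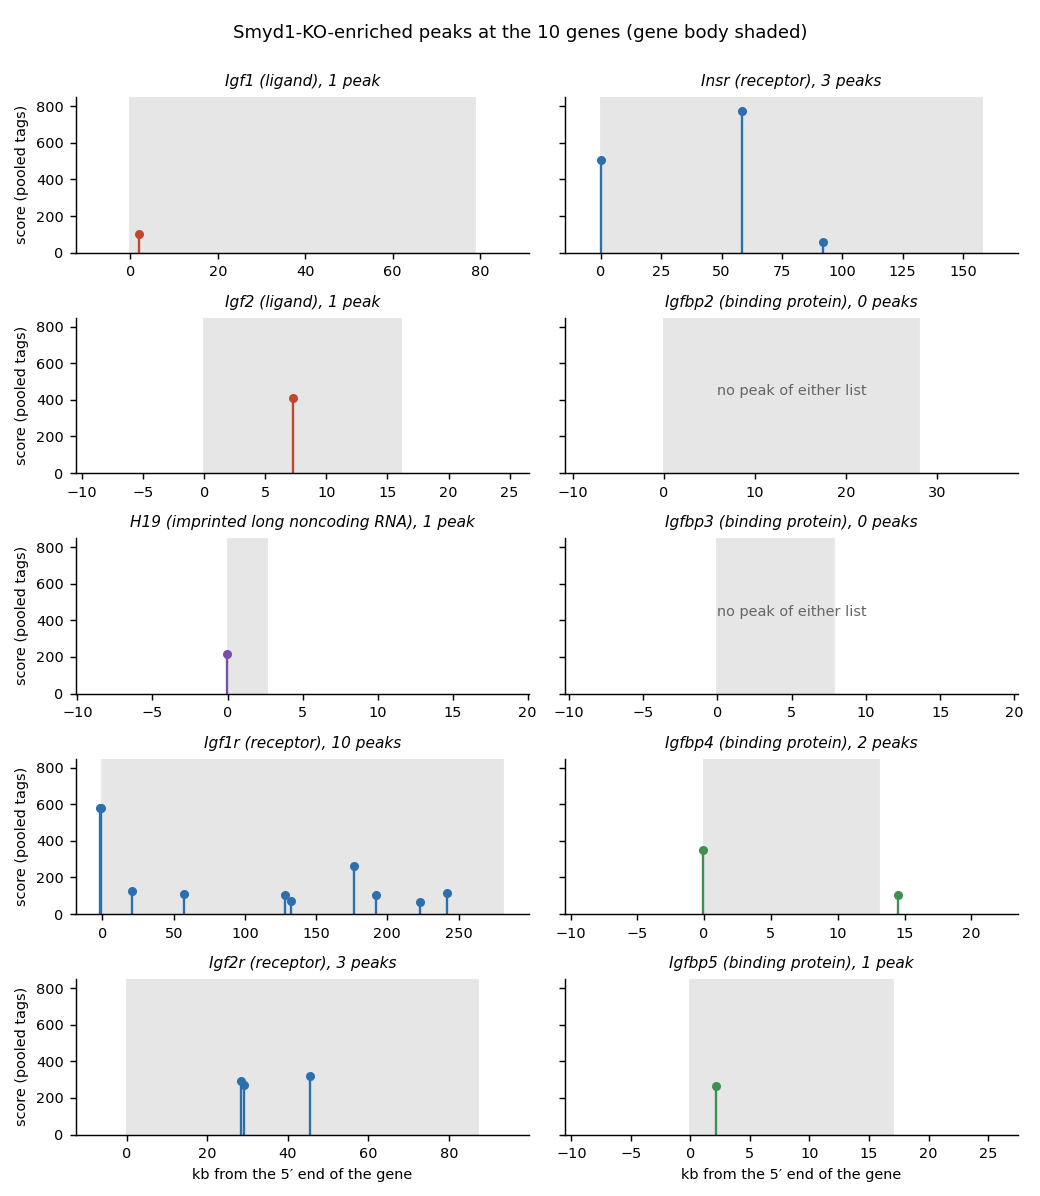
Position and score of each gained peak at the 10 genes, with the distance in kb from the 5′ end of the gene along its own direction of transcription on the horizontal axis and the score in pooled tags on the vertical axis. Each stem is 1 peak from the pooled libraries and the shaded area is the gene body. The 10 peaks of *Igf1r* spread over the gene, those of *Igf2*, *H19* and *Igfbp5* and the first of the 2 of *Igfbp4* sit near a TSS, and *Igfbp2* and *Igfbp3* have none.

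The ligand genes had a single gained peak each, at a promoter. *Igf2*, the fetal growth factor gene, lies on the minus strand at chr7:142650766-142666816, and its peak at chr7:142659456-142659604 covered the TSS of the gene's main transcript, 7.29 kb downstream of the gene's most distal 5′ end. The score was 412 tags, higher than that of 75.1% of the gained list. The interval was GC-rich, with a GC content of 77.9% and 23 CpG dinucleotides, and was richer in GC than 91.3% of the near-TSS class, that is, the gained peaks that lie no more than 3 kb from a TSS of any gene. It also lay 89 bp from a TSS of *Igf2os*, an antisense transcript that starts on the other strand, and inside the overlapping gene model *Gm49394*, and without strand information the peak cannot be given to either start. The RefSeq promoter windows of *Igf2* belong to other starts, the nearest 652 bp away, and none of these windows overlapped a gained peak. The part of the peak upstream of the TSS, chr7:142659490-142659604, is shown on the strand of *Igf2*, because it is the only place in the gene on the list. In this and the following sequences, taken from the RefSeq copy of GRCm38.p6 and read 5′ to 3′, capitals mark matches to short motifs on either strand, here a CCAAT box read on the other strand.
Igf2 TSS peak: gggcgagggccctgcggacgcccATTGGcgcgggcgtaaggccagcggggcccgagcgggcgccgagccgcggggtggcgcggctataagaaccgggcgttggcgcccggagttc

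*Igf1* lies on the plus strand at chr10:87858265-87937042 and encodes the growth factor better known from postnatal growth. Its gained peak at chr10:87860165-87860313 scored 102 tags, higher than 32.6% of the gained list and than 10.6% of the near-TSS class. It was thus among the weaker promoter peaks of the list. The peak began 135 bp from the TSS of a secondary transcript, inside a 5′ untranslated exon, and 798 bp from the RefSeq start of the gene. The GC content was 64.4%, and none of the motifs searched had a match. The gene is 78.8 kb long and held no other gained peak.

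*H19*, a maternally expressed long noncoding RNA that is also the host of *Mir675*, lies on the minus strand at chr7:142575529-142578143. The gained peak at chr7:142578130-142578278 covered its TSS, with 14 bases inside exon 1 and the rest upstream. It scored 217 tags, more than 55.1% of the list but only 27.7% of the near-TSS class. The TSSs of *Mir675* and of the small RNA gene *Gm27786*, both inside *H19*, lay within 1 kb of it. The sequence on the strand of *H19* held a pair of GC boxes, GGGCGG, and a CCAAT box upstream of them, and is shown because it is the promoter itself.
H19 TSS peak: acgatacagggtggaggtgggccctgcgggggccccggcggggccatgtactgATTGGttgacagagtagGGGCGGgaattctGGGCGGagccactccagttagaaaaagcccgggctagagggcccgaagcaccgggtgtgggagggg

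*Igf1r*, the receptor through which both ligands signal, lies on the plus strand at chr7:67952827-68233668 and held 10 gained peaks, 8 inside its 281 kb and 2 upstream. This number exceeded that of 99.8% of protein-coding genes. The gene is long, however, and per 100 kb of window it had 3.44 gained peaks, a density above that of 67.2% of protein-coding genes. Over all protein-coding windows together the density was 1.59 per 100 kb. The 10 peaks fell into an upstream pair of high score and 8 intronic peaks of mostly low score.

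**Figure D2:**
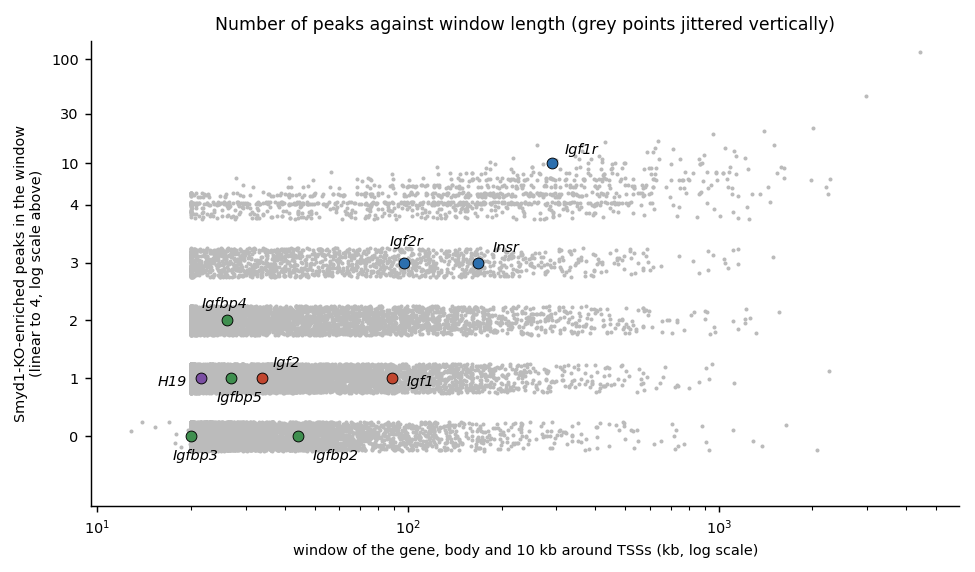
Number of gained peaks against window length for all protein-coding genes (grey points, spread vertically for visibility) and for the 10 genes (coloured by role, receptors blue, ligands red, binding proteins green, *H19* purple). The vertical axis is linear up to 4 and logarithmic above, and the horizontal axis is logarithmic in kb. *Igf1r* stands at 10 peaks in a window of 291 kb, and *Igfbp2* and *Igfbp3* stand at 0.

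The upstream pair of *Igf1r* scored 581.5 and 582 tags, each above 85.9% of the list, and the next highest score of the gene was 264 tags. The members of the pair were 657 bp apart and ended 1790 and 984 bp before the annotated 5′ end, at chr7:67950889-67951037 and chr7:67951695-67951843. RefSeq places the start of *Igf1r* farther upstream, 414 bp from the nearer peak, so the pair flanks the promoter without covering a start in either annotation. Both were GC-rich, at 72.5% and 79.2%, and the nearer one held 23 CpGs. Each held 1 GC box. The outer peak also held the TEAD motif GGAATG in both orientations, and the inner peak held 1 copy of ACGTG, the core of the hypoxia response element. The pair is shown on the plus strand because it carries the highest scores of the gene.
Igf1r outer upstream peak: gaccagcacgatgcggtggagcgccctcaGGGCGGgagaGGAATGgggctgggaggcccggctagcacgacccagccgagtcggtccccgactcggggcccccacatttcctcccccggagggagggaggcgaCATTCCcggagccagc
Igf1r inner upstream peak: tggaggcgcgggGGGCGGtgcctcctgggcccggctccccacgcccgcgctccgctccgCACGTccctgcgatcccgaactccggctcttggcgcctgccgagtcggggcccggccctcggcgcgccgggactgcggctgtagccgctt

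The 8 peaks inside *Igf1r* had a median score of 108.2 tags, against 180.5 for the whole list and 87 for the distal class, the gained peaks farther than 3 kb from any TSS. From the 5′ end onwards they scored 124 tags in intron 1, 110.5, 106, 73.5, 264 and 103.5 tags in intron 2, 64 tags in intron 5 and 115.5 tags in intron 11. None of these intervals touched an exon. The strongest was the fifth, at chr7:68129127-68129275, 176 kb into the gene and 19315 bp from the nearest TSS of any gene. Its 264 tags exceeded 91.9% of the distal class. The last, in intron 11, ended 111 bp before the TSS of an internal transcript of *Igf1r*. The peak in intron 5 lay for 85.2% of its length in soft-masked repeat sequence, the highest such share among the 22 peaks, of which 13 held no masked base. The strongest intronic peak is shown because its 3 CCAAT boxes (CCAAT or its complement ATTGG), beside 1 GC box, were found in few peaks. At least 3 such boxes occurred in 0.948% of the gained list. CCAAT was added to the search after the sequences had been read, so this share only describes the peak.
Igf1r intron 2 peak: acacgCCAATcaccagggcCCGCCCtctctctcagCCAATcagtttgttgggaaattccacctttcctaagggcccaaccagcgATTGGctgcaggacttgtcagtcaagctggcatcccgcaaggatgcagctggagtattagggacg

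*Igf2r*, which encodes the lysosomal scavenger of IGF2, lies on the minus strand at chr17:12682406-12769664 and held 3 gained peaks, none within 3 kb of an own TSS. The nearest was 9456 bp from a TSS of *Igf2r*. The RefSeq promoter window of the gene, with a GC content of 70.7% and 34 CpGs, held no gained peak. The peaks instead lay in introns 2 and 10 of the receptor gene, and the pair in intron 2 lay at the start of *Airn*, the noncoding RNA that is transcribed from the paternal allele on the opposite strand and silences *Igf2r* in cis. One peak of the pair, at chr17:12741196-12741344 with 295.5 tags, covered TSSs of *Airn*. The other, at chr17:12740411-12740559 with 269 tags, lay 636 bp away and 752 bp from an *Airn* TSS, outside the transcript. The third, at chr17:12724083-12724231, scored 319.5 tags, above 94.8% of the distal class, and was 17080 bp from the nearest TSS of any gene, that of *Airn*. The scores of the 3 peaks lay close together in the list, above 61.4%, 64.4% and 66.8% of it.

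The *Igf2r* peaks were poorer in GC than most others of their kind. The peak beside the *Airn* start had a GC content of 43.6%, lower than all but 0.851% of the near-TSS class, and the one over the start had 55%. Each held 2 CpGs, and the third held 0. The intron 10 peak and the one beside the *Airn* start each held 2 copies of the GATA motif AGATAA, read on either strand, a number reached in 0.789% of the gained list. They are shown on the strand of *Igf2r*, which is opposite to that of *Airn*.
Igf2r peak over the Airn start: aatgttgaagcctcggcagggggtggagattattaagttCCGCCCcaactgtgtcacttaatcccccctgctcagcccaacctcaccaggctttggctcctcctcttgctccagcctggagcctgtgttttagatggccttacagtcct
Igf2r peak beside the Airn start: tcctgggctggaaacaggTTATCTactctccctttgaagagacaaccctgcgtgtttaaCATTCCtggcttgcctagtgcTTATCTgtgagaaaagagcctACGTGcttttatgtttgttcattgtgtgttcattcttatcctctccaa
Igf2r intron 10 peak: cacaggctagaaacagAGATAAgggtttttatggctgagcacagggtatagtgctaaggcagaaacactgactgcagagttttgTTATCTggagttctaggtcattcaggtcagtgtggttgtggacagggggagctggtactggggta

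*Insr*, the insulin receptor gene, lies on the minus strand at chr8:3122061-3279617 and held 3 gained peaks. The one at chr8:3279438-3279586 scored 508 tags, covered a TSS of a secondary transcript and lay within the first exon, so its sequence, which is untranslated, is not shown. The one in intron 9, at chr8:3187541-3187689, scored 58 tags, the lowest of all 22. The one in intron 2, at chr8:3221117-3221265, scored 775 tags, the highest of all 22. Although it was 28400 bp from the nearest TSS of any gene, its score exceeded that of 99.6% of the distal class. Its GC content of 67.1% exceeded that of 97.1% of them, and its ratio of observed to expected CpGs, 0.843, that of 98.2%. For comparison, the near-TSS class had a median score of 365.5 tags and a median GC content of 65.1%, so the site was closer to that class than to its own in both. The sequence, on the strand of *Insr*, held 2 GC boxes and 1 CCAAT box within its first 50 bases.
Insr intron 2 peak: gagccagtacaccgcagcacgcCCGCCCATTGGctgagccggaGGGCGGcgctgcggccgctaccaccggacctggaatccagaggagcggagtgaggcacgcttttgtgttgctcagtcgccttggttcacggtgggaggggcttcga

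Among the binding protein genes, *Igfbp4* and *Igfbp5* had gained peaks and *Igfbp2* and *Igfbp3* had none. *Igfbp4*, whose product is an inhibitor of IGF action until it is cleaved by the protease PAPP-A, lies on the plus strand at chr11:99041244-99054392. The peak at chr11:99041120-99041268 covered its TSS and scored 348 tags, above 69.6% of the list. The only exact TATA box, TATAAA, at a TSS among the 22 peaks lay here. A second peak of 105 tags lay beyond the 3′ end of the gene, 8354 bp from the TSS of an internal transcript, at chr11:99055665-99055813. With 2 peaks in a window of 26.1 kb, *Igfbp4* had the highest density of the 10 genes, 7.67 per 100 kb, above that of 90.5% of protein-coding genes. The window is short, however, and by number its 2 peaks exceeded those of 70.7% of protein-coding genes. The second peak lay 14.5 kb from the 5′ end of the gene and counted only through an internal start. The TSS peak holds 25 bases of the 5′ untranslated exon at its end.
Igfbp4 TSS peak: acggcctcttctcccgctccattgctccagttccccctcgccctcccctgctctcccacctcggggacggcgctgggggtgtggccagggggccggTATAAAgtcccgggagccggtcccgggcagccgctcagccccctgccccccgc

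*Igfbp5*, a binding protein gene active in many mesenchymal tissues, lies on the minus strand at chr1:72857932-72874884. Its single gained peak, at chr1:72872620-72872768, scored 264 tags, the same as the strongest intronic peak of *Igf1r*. It lay in intron 1, 1507 bp from the nearest own TSS, and held a GC box on either strand.
Igfbp5 intron 1 peak: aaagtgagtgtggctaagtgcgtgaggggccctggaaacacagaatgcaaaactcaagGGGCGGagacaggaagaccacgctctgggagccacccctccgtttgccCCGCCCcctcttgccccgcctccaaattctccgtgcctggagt

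*Igfbp2* neighbours *Igfbp5* in tail-to-tail orientation, at chr1:72824503-72852474, and had no gained peak in a window of 44.2 kb. The nearest missed the limit narrowly, since it scored 49 tags, above 8.45% of the list, and lay 10529 bp upstream of the TSS. Over both genes and 100 kb to either side there were 6 gained peaks, and only the *Igfbp5* peak lay between the outer ends of the genes. *Igfbp3*, at chr11:7206086-7213923 on the minus strand, is also paired tail to tail, with *Igfbp1*. The gained peak nearest to its TSS scored 71.5 tags and was 20943 bp away, beyond *Igfbp1*, whose only peak it was. The 6 gained peaks over this pair and 100 kb to either side scored between 70 and 117 tags, all below the list median of 180.5, and 0 of them lay between the outer ends of the genes. The promoter windows of *Igfbp2* and *Igfbp3* are CpG-rich, with up to 18 and 37 CpGs in 300 bases. The lists name differential peaks only and do not show how open these genes were in either genotype.

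The scores of the 22 peaks spread over the bulk of the list, from 58 to 775 tags. Their median was 240.5 tags, against 180.5 for the whole list, and 12 of the 22 (54.5%) reached the list median. This order was not stable, since the median over the genes was 175.2 tags with a window of 50 kb, below the 180.5 tags of the deposited list. With peaks less than 1 kb apart merged it was 170.5 tags, but a list median after the same merging is not given here. Position within the gene went with the score. The 9 peaks within 3 kb of an own TSS had a median of 348 tags and the 13 farther peaks one of 110.5 tags. The list as a whole was split by another rule, distance to a TSS of any gene. Its medians were 365.5 tags for the near-TSS class and 87 tags for the distal class. Of the 13 farther peaks, 2 lay within 3 kb of a TSS of another gene, so the medians are not matched. Within 3 kb of a TSS of any gene lay 11 of the 22 peaks, or 50% (95% exact Clopper-Pearson interval 28.2% to 71.8%, for counting error only), against 54.3% of the list. A TSS of any gene was covered by 5 of them (22.7%), against 25.4% of the list. These shares are given side by side only, because the 22 peaks were taken from in or near genes and the list also holds intergenic peaks.

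**Figure D3:**
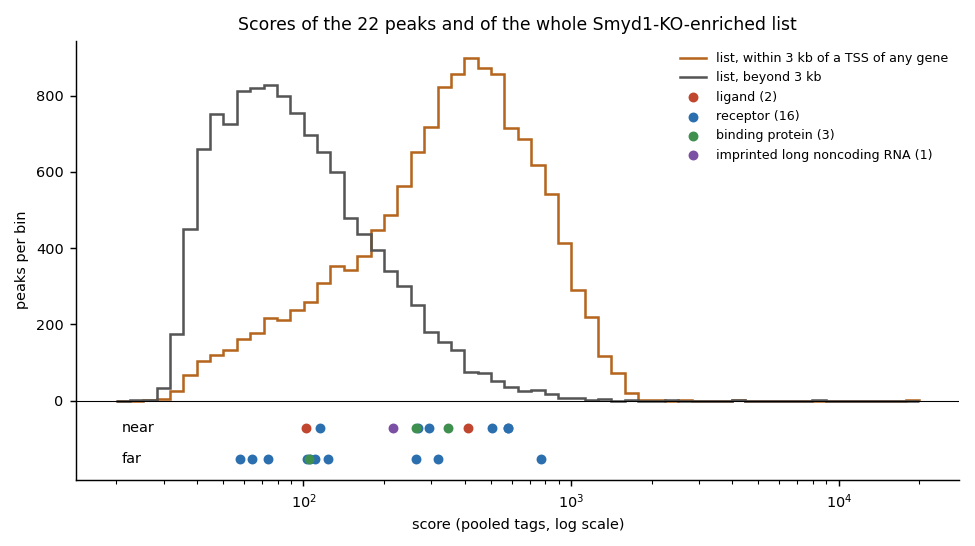
Scores of the gained list as numbers of peaks per bin, separately for peaks within 3 kb of a TSS of any gene (brown) and beyond (grey), on a logarithmic axis of pooled tags. The points below the axis are the 22 peaks at the 10 genes, in an upper row for those near a TSS and a lower row for the others, coloured by role. The rightmost point of the lower row is the *Insr* intron 2 peak at 775 tags.

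Around *Igf2* and *H19*, which share enhancers on the far side of *H19*, the gained list held 10 peaks between and up to 100 kb outside the genes, and the WT-enriched list 0. The highest score of the interval, 630 tags, belonged to neither promoter. This peak, at chr7:142611195-142611343, lay between the genes, 33.1 kb upstream of *H19* and 55.5 kb downstream of the distal 5′ end of *Igf2*, inside the long noncoding gene *Gm33148* and 19451 bp from the nearest TSS. Beyond *H19*, 3 peaks fell into the H19/Igf2 enhancer region annotated by RefSeq at chr7:142547916-142573912. They scored 225, 382.5 and 173.5 tags and lay 25.4, 24.8 and 16.7 kb downstream of the *H19* 5′ end. The first and the second were inside the VISTA enhancer mm50, a fragment with reporter activity in the embryonic heart, limb and somites. VISTA enhancer mm47 of the same region held no gained peak, nor did the conserved segments annotated there one by one, among them skeletal muscle, mesoderm and endoderm enhancers.

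The imprinting control region between the genes, at chr7:142580248-142582833, held no peak of either list. CTCF binds there on the maternal allele and separates *Igf2* from the enhancers. The nearest gained peak was the *H19* TSS peak, 1970 bp away. Accessibility at this region is therefore not listed as different between the genotypes, which does not show that it was equal. RefSeq elements of any kind were touched by 247 of the 25745 gained peaks (0.959%), and RefSeq enhancers with activity noted in the heart by 104 (0.404%), and 0 of the 22 peaks at the 10 genes touched one. The intergenic peak and the pair in enhancer mm50, chr7:142552700-142552848 and chr7:142553253-142553401, are shown on the strand of *Igf2* and *H19*.
Igf2-H19 intergenic peak: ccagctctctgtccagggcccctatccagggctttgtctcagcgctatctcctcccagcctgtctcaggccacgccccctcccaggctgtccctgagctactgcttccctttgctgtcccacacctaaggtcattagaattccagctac
mm50 enhancer first peak: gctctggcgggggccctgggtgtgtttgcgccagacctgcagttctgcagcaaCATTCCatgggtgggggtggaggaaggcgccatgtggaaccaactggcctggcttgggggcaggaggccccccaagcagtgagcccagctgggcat
mm50 enhancer second peak: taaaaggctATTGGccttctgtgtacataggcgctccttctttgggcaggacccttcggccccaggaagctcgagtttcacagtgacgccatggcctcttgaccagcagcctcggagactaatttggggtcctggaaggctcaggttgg

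Over *Igf2r* and *Airn* together, 178 kb, there were 6 gained peaks and 0 WT-enriched peaks. Besides the 3 in *Igf2r*, 3 lay upstream of the receptor gene in the body of *Airn*, at 10.6, 21.2 and 40.9 kb from the *Igf2r* 5′ end, with 326, 409.5 and 125.5 tags. The one of 409.5 tags, at chr17:12790768-12790916, fell inside the VISTA enhancer mm89, which has reporter activity in embryonic heart and blood vessels. It was also 744 bp from the TSS of the noncoding gene *CT030636.1*. It held none of the motifs searched and is shown as the strongest peak of this interval.
mm89 enhancer peak: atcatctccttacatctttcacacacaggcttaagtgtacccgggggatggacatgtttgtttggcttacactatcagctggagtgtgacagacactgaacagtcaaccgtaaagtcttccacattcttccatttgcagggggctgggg

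**Figure D4:**
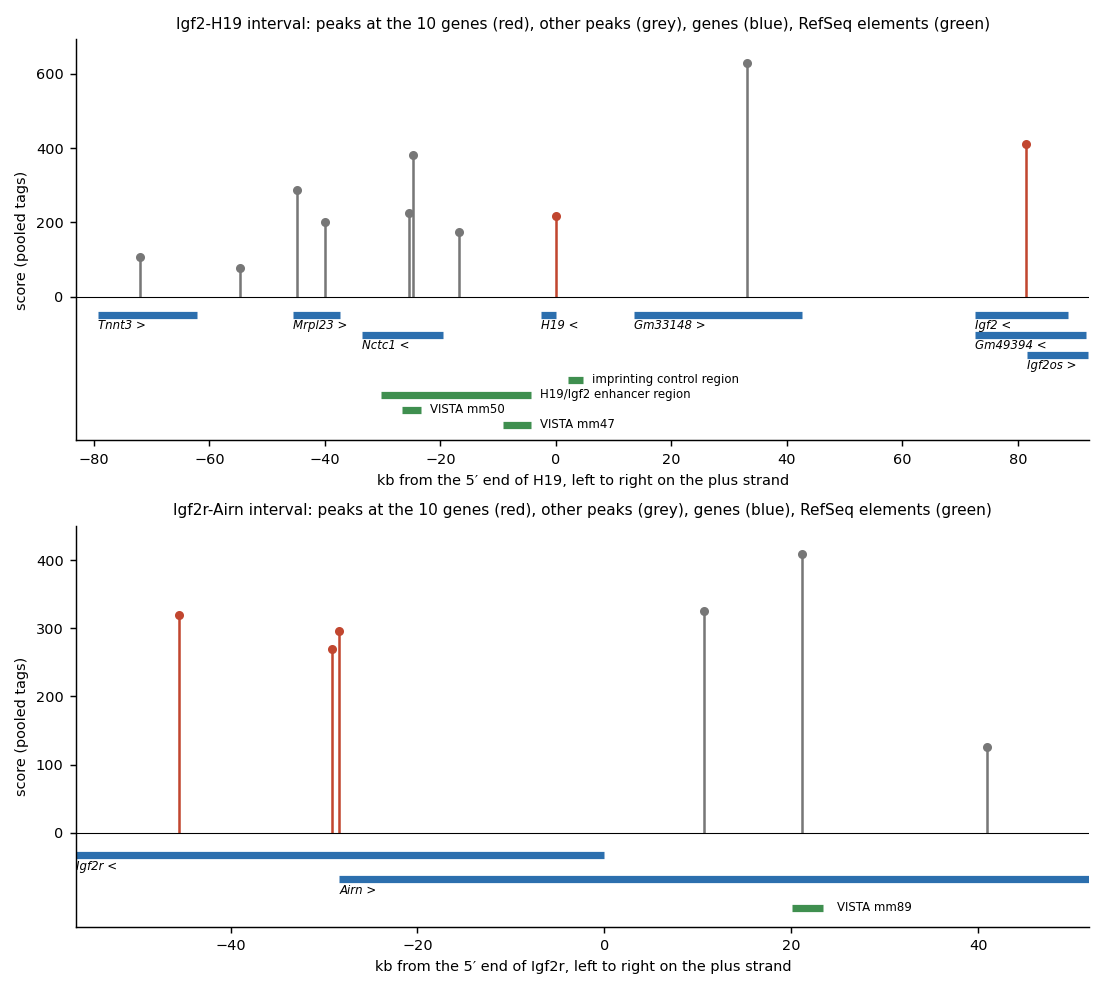
Gained peaks across the *Igf2*-*H19* interval (upper panel) and the *Igf2r*-*Airn* interval (lower panel), with the score in pooled tags on the vertical axis and the distance in kb from the 5′ end of *H19* or *Igf2r* on the horizontal axis. Red stems are peaks at the 10 genes and grey stems other gained peaks, blue bars are genes with their direction, and green bars are elements annotated by RefSeq. The imprinting control region has no stem over it, whereas VISTA enhancers mm50 and mm89 do.

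Short motifs were counted in the 22 peaks beside all gained peaks and all 32851 RefSeq promoter windows of 300 bases. All were searched on both strands, and matches of different motifs did not overlap in the 22 peaks. The GATA motif AGATAA, read by GATA factors of the heart and blood, occurred in 6 peaks (27.3%), against 8.87% of the list and 11.2% of promoter windows. These were 2 peaks each in *Igf1r* and *Igf2r*, the weakest of *Insr* and the downstream one of *Igfbp4*. In the list the motif was found in 15% of the distal class and 3.68% of the near-TSS class. The TEAD motif GGAATG occurred in 5 peaks (22.7%), against 10.6% of the list and 14.7% of promoter windows, and 3 of them were in *Igf1r*. It too differed between the classes of the list, with 15.3% of the distal class and 6.59% of the near-TSS class.

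The SP1 motif GGGCGG, the GC box, occurred in 8 peaks (36.4%), against 29.1% of the list and 35.7% of promoter windows. Neither the *Igf1* nor the *Igf2* peak held one. In the list the GC box was found in 46.9% of the near-TSS class and 7.9% of the distal class. The hypoxia response core ACGTG occurred in 2 peaks (9.09%), against 10.1% of the list and 19.6% of promoter windows. TATAAA occurred in 2 peaks, against 2.69% of the list and 13.6% of promoter windows. The consensus motifs of CTCF and MEF2, which were found in 4.34% and 1.76% of the list and in 0.557% and 3.19% of promoter windows, had no exact match in any of the 22 peaks. The same CTCF search also had 0 matches in the imprinting control region and in the CTCF sites annotated there. A missing match therefore does not show that a CTCF site is absent. CCAAT, a motif added after the sequences had been read, occurred in 6 peaks (27.3%), against 19.6% of the list and 37.4% of promoter windows. With each peak widened by 100 bp on either side, TEAD matches were found in 8 peaks, ACGTG in 5 and TATAAA in 4. A match describes the sequence and is not a bound site, and a share over 22 peaks moves by several percentage points with 1 peak.

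The other genes of the pathway were read from a list of 37, from the insulins and further binding proteins to PI3K, AKT, mTOR and FOXO. A gained peak was present at 33 of them (89.2%), against the 62.6% of protein-coding genes, and within 3 kb of an own TSS at 27 (73%), against 51.2%. None had a WT-enriched peak. The 4 genes without a gained peak were *Ins1*, *Ins2*, *Insrr* and *Tsc2*, that is, both insulin genes, the insulin receptor-related receptor and a repressor of mTOR complex 1. The highest score on the list, 1404.5 tags at *Pik3r2*, a regulatory PI3K subunit, belonged to a peak 8255 bp from its own TSS and 39 bp from that of *Mpv17l2*. The 1013 tags at *Igfals*, which encodes the acid-labile subunit of circulating IGF complexes, likewise lay 69 bp from the TSS of *Spsb3*. *Igf2bp3*, an RNA-binding protein gene named for its binding of *Igf2* mRNA, had a peak of 1273.5 tags 3056 bp from its TSS. Peaks over the own TSS scored 1087.5 tags at *Shc1*, a receptor adaptor, where the interval also covered a TSS of *Cks1b*, and 1011 tags at *Pik3r1*. The scores at these 5 genes were all higher than any at the 10 genes of the axis, although 2 of them belonged to promoters of neighbours.

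Of 18 further imprinted genes, 13 (72.2%) had a gained peak and 11 (61.1%) had one within 3 kb of an own TSS. Among all protein-coding genes these shares were 62.6% and 51.2%, and 39.7% of all annotated genes had a gained peak, so the imprinted list was not far from the protein-coding background. None had a WT-enriched peak. *Cdkn1c*, *Dlk1*, *Meg3*, *Ascl2* and *Phlda2* had none of either list. Among these, *Cdkn1c*, *Ascl2* and *Phlda2* lie on the distal part of chromosome 7 near *Igf2*, as does *Kcnq1ot1*, which had 1 peak over its TSS. The highest scores were 764.5 tags at *Zim1*, 584 at *Gnas*, 465.5 at *Peg10*, 445 at *Peg3* and, from the peak shared with *Igf2*, 412 at *Igf2os*. *Gnas* also had the most gained peaks of this list, 6, and *Airn* followed with 5.

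**Figure D5:**
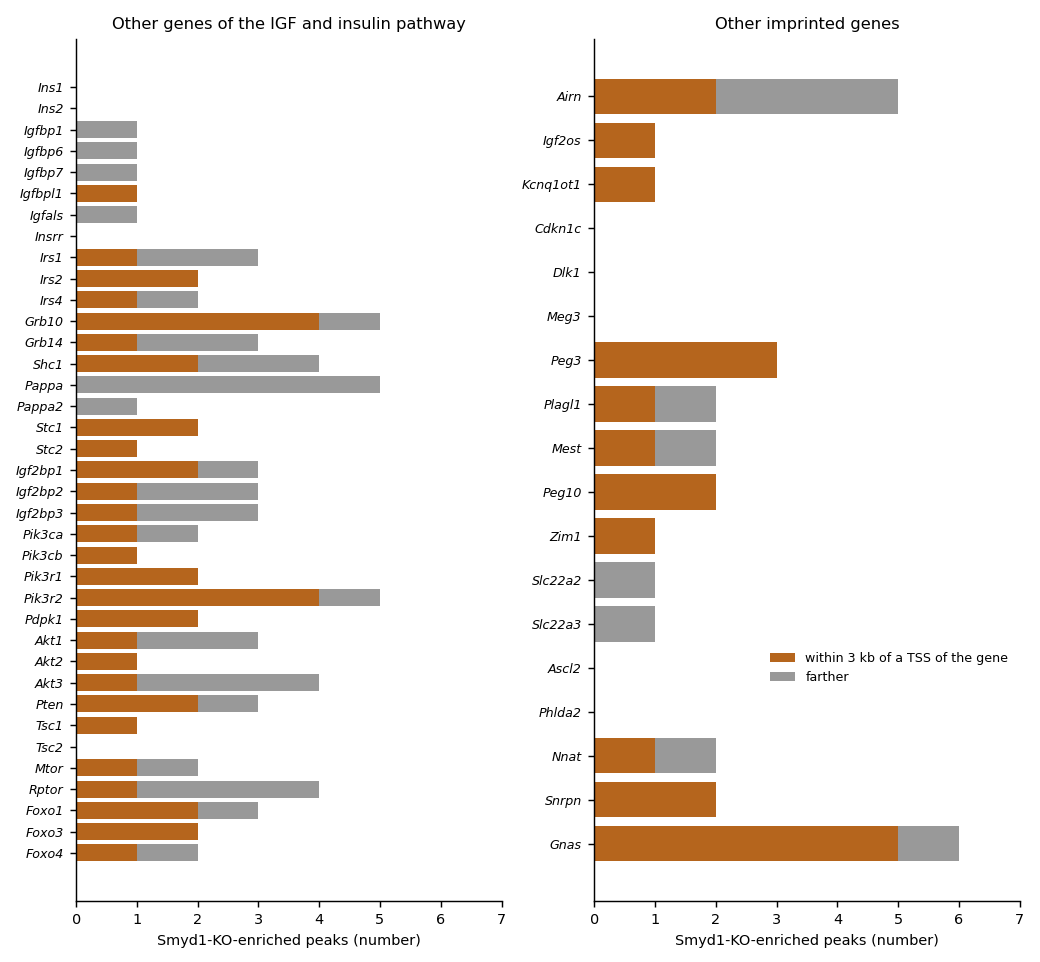
Number of gained peaks in the gene or within 10 kb of a TSS for the 37 other genes of the IGF and insulin pathway (left) and the 18 other imprinted genes (right). Brown segments are peaks within 3 kb of a TSS of that gene and grey segments farther peaks. Genes without a bar have 0 gained peaks, as *Ins1*, *Ins2*, *Insrr* and *Tsc2* do on the left.

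Marker genes of the cell types in a heart were read by the same rule, to show where the lists touch them. A gained peak was present at 6 of 6 cardiomyocyte genes, 4 of 5 endothelial and endocardial genes, 2 of 4 erythroid genes and 3 of 4 epicardial and mesenchymal genes, and a WT-enriched peak at 0 of them. With a gained peak at 62.6% of all protein-coding genes, such counts over 4 to 6 genes set no marker list apart. The genes without one were *Cdh5*, *Gata1*, *Hbb-bh1* and *Tcf21*. Differential peaks do not show which cells were present, and the part of cell composition in the peaks at the IGF genes was not tested.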

How the data were processed

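ATAC-seq libraries of E9.5 mouse hearts, 2 per genotype, were aligned by the authors to mm10 with BWA-MEM, and peaks were called with HOMER v4.10.3 on the combined libraries of each genotype and annotated with ChIPseeker v1.20.0. The deposited signal of a peak, column 5 of each list, is the pooled tag signal of the enriched genotype, headed as total tags by the authors. It is not a raw count. In the *Smyd1-KO* list it moves in steps of 0.5, and in the WT list it follows no fixed step, the scaling is not given in the sources used here, and scores were compared within a list only. The authors kept peaks with a 2-fold difference in tags and a Poisson p-value cutoff of 0.0001. Each peak is 149 bp wide. Treatment of duplicate reads, of the Tn5 offset and of artifact regions is not given in the sources used here, and each could change which peaks are listed. The total depth of a library is unknown from the lists.

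Peaks were placed on GENCODE M21 (mm10) with Python 3.11.15, numpy and pysam. Placement was checked on 200 simulated peaks at known distances from real TSSs, of which 200 were recovered. Regulatory elements, promoter windows and sequences came from RefSeq on GRCm38.p6, where promoter windows were found for 8 of the 10 genes (not for *H19* and *Insr*). The members and gene lists were chosen with earlier results of these data known, so their counts are descriptions and no test was made. All 10 genes are named with all peaks. Of the pathway and imprinted lists, the 5 genes with the highest-scoring peak and all genes without a peak are named, as are genes with a TSS within 1 kb of a peak of the 10 genes, and any further gene was picked after its values were seen. Alternatives varied the TSS set, the window, the score threshold, the point that places a peak and the merging of close peaks.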

Additional observations from a re-analysis of the deposited data

How the results depend on the processing

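Of 74 recomputed values, 58 stayed close to the reported value, judged for counts by a factor of 1.5 and for percentages and medians by the interval of the reported value alone, and no test between genotypes was made that could lose a call. For the median score this interval was wide, from 105 to 348 tags. All alternative medians fell inside it, so staying close says little about them. Gained peaks at the 10 genes numbered 12 with scores at or above the list median, 13 within 10 kb of a TSS only and 40 with a 50 kb window, against 22. The median score at the 10 genes ranged from 170.5 to 333.8 tags over the alternatives, and fell below the list median of 180.5 with a 50 kb window (175.2). With close peaks merged it was 170.5, which has only the unmerged list median beside it. The share near a TSS became 75% with scores at or above the median and 76.9% with TSSs only. All 10 genes had a gained peak within the 50 kb window. The percentage of protein-coding genes with a gained peak was 61.5 with 1 TSS per gene, 61.6 with basic transcripts, 51.5 with scores at or above the median, 56.6 with 3 kb, 59.5 with TSSs only, 79.1 with 50 kb and 39.7 over all genes. Widening peaks by 100 bp on each side gave 8 peaks with a TEAD motif (against 5), 5 with ACGTG (against 2) and 4 with TATAAA (against 2). Flanks of 100 kb, chosen after seeing the data like the CCAAT search, gave 10 gained peaks around *Igf2r* and *Airn*. Leaving out a replicate was not possible because the lists pool the libraries. No paired analysis was possible because the pooled lists carry no replicate numbers. Pooled tags set the limit, as sites with few tags could not enter the lists.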
